A study of Mus musculus with 2 samples.

Results

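Windows of 100 kb that hold 15 or more 5hmC peaks were examined in prospermatogonia of E17.5 mouse embryos, the cells of the foetal testis that later give rise to sperm. Each autosome of build mm10 was divided into windows of 100 kb from position 0, and a peak was counted in the window that holds its midpoint. Of 24045 autosomal windows, 791 had 15 or more peaks (3.29%), and these are called dense windows below. Because the peak count chose them, every value of their peaks is a description of this library and carries no test.

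The samples were 1 captured library and 1 library of the same DNA before capture, both of batch 1 and both from wild-type cells. Cells of several embryos were pooled (30000 in all), and 50 ng of sheared genomic DNA was used, so animals cannot be told apart. The values come from the broad peaks called for the captured library; no file of the other library was used. There is no replicate, and with no counts of reads the depth is unknown. The assay reads DNA, so the identity of the cells was not checked by expression. Exact Clopper-Pearson intervals at 95% are given for shares and cover counting error only, since neighbouring windows and genes are not independent.

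5-hydroxymethylcytosine (5hmC) is made when TET enzymes oxidise 5-methylcytosine, so it can form only where DNA has been methylated. In many tissues it is known to lie in the bodies of genes and at enhancers and to be scarce at unmethylated promoters rich in CpG dinucleotides. Foetal prospermatogonia are the stage at which the male germline regains DNA methylation after its erasure in earlier germ cells. In 5hmC-Seal a modified glucose is placed on 5hmC and tagged with biotin, and the tagged fragments are captured on streptavidin.

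Promoters could be read at the level of sequence. In dense windows no peak overlapped a CpG-rich promoter, while peaks lay on both sides. Such overlaps were rare in the other windows too, so this is not particular to dense windows. The sequences below contrast CpG-rich promoters without a peak and other promoters with a peak. They are RefSeq promoters of build GRCm38.p6, running from 250 bases before to 50 bases after a gene start, 5′ to 3′, with each CG in capitals. The opening 3 are CpG-rich promoters of the windows with most peaks, 1 per window, and none of them was overlapped by a peak. Klc4, a kinesin light chain gene, has its promoter at chr17:46646031-46646330 on the minus strand. Scube3, which encodes a secreted protein, has its promoter at chr17:28142059-28142358 on the plus strand. Tcp11, a gene of sperm function, has its promoter at chr17:28080590-28080889 on the minus strand.
Klc4: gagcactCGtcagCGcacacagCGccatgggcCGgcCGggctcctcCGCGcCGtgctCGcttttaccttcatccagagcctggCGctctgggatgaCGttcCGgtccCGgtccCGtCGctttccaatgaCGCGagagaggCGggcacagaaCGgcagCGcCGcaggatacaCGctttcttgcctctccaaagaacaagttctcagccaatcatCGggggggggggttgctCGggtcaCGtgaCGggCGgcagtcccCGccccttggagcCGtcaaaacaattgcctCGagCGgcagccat
Scube3: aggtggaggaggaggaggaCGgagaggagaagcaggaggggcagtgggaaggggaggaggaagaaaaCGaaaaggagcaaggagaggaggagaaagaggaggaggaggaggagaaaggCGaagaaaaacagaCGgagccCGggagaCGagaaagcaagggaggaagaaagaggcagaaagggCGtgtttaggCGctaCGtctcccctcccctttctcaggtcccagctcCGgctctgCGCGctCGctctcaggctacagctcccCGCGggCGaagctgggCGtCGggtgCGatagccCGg
Tcp11: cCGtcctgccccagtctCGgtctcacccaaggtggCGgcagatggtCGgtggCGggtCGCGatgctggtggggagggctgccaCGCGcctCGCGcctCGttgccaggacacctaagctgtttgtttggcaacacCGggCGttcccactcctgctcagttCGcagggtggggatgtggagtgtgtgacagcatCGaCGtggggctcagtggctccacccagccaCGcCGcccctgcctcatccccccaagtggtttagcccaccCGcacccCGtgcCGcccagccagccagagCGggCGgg

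The Klc4 promoter holds 31 CG, the Scube3 promoter 20 and the Tcp11 promoter 24, and all 3 lie in windows of 24 peaks. From the Klc4 start the nearest peaks lay 2.23 kb upstream and 3.68 kb downstream. From the Scube3 start they lay 1.92 kb upstream and 1.56 kb downstream, and from the Tcp11 start 2.19 kb upstream and 1.99 kb downstream. These stretches, measured to the peak edges, were shorter than the longest distance between neighbouring midpoints in the same windows. That distance was 8.75 kb in the Klc4 window, 9.29 kb in the Scube3 window and 8.20 kb in the Tcp11 window. Distances between midpoints include part of the width of each peak, so the measures are unlike. The 3 examples alone do not set promoters apart from other stretches between peaks.

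The next 3 are promoters with few CG that a peak overlapped, chosen in the same way. Il17c, an interleukin gene, has its promoter at chr8:122421770-122422069 on the plus strand. Dnah2, an axonemal dynein heavy chain gene, has its promoter at chr11:69549059-69549358 on the minus strand. Osgin1, an oxidative stress response gene, has its promoter at chr8:119436897-119437196 on the plus strand.
Il17c: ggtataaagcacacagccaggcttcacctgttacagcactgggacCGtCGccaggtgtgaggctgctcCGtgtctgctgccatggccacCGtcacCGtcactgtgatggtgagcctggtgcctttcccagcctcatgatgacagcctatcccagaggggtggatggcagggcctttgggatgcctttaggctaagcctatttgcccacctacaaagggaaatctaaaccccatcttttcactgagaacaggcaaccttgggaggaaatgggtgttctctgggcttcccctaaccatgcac
Dnah2: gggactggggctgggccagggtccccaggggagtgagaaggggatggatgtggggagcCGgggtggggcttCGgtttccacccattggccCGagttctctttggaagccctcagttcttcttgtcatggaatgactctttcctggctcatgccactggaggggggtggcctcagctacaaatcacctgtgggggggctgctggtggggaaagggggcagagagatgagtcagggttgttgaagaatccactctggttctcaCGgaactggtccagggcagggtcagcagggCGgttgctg
Osgin1: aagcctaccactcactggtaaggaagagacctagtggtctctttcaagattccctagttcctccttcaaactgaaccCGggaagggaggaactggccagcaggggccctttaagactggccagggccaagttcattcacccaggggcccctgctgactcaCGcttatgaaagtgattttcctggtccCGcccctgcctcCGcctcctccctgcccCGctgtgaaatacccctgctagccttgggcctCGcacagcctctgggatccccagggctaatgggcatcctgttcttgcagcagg

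The Il17c and Dnah2 promoters hold 5 CG each and the Osgin1 promoter holds 6. The peak on Il17c had a fold enrichment of 3.57, that on Dnah2 3.20 and that on Osgin1 3.83. Fold enrichment is the authors' ratio of captured signal to the background that the peak caller assumed. Their GC content was closer to that of the CpG-rich promoters than their number of CG was. It was 61.3% in Dnah2, which holds 5 CG, and 62% in Scube3, which holds 20.

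Over all promoters the same contrast held. A promoter was called CpG-rich when its ratio of observed to expected CG was at least 0.6 and its GC content at least 55%. The table gave a promoter for 16457 of 20560 autosomal protein-coding genes, and a peak overlapped 573 of them (3.48%). In dense windows 0 of 673 CpG-rich promoters were overlapped by a peak (exact interval 0 to 0.547%). The counts were 1 of 265 (0.377%) in windows with 14 peaks and 28 of 6092 (0.460%) in windows with under 14 peaks. Of the other promoters, a peak overlapped 87 of 518 in dense windows (16.8%, interval 13.7 to 20.3). It was 25 of 217 (11.5%) in windows with 14 peaks and 432 of 8692 (4.97%) in windows with under 14 peaks. Taking every listed start and not 1 per gene, a peak overlapped 1 of 854 CpG-rich promoters in dense windows (0.117%). CpG-rich promoters were thus nearly free of peaks in both window classes. At the other promoters the share was higher in dense windows, but these windows were chosen for many peaks. Peaks covered 13.8 Mb of the 79.1 Mb of dense windows, against 3.49% of the sequence of all other windows. A higher share is therefore likely there for any feature, and the gap is not read as a trait of these promoters. CpG-rich promoters were also the larger class in dense windows, 56.5% of promoters, against 41.2% in windows with under 14 peaks. The median promoter had 19 CG in dense windows, against 13 in windows with under 14 peaks.

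**Figure D1:**
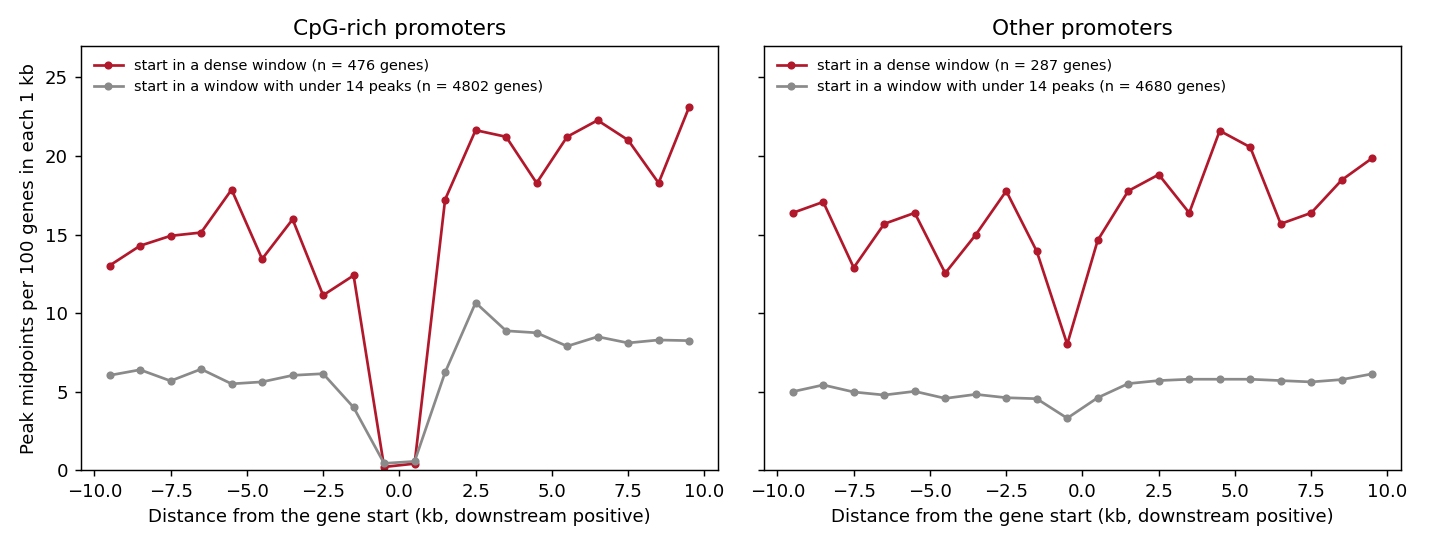
Peak midpoints per 100 genes (vertical axis) in steps of 1 kb up to 10 kb from the gene start (horizontal axis, downstream positive), for CpG-rich promoters (left) and other promoters (right) of genes of at least 10 kb. Red lines are starts in dense windows and grey lines are starts in windows with under 14 peaks; at CpG-rich starts the red line is at 0.210 and 0.420 in the 1 kb on each side and at 17.2 from 1 to 2 kb downstream.

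The gap at CpG-rich starts spanned about 1 kb on each side. Among 476 CpG-rich starts in dense windows, only 1 peak midpoint lay in the 1 kb upstream and 2 in the 1 kb downstream. From 1 to 2 kb downstream there were 82 midpoints, or 17.2 per 100 genes, and from 1 to 2 kb upstream 59, or 12.4 per 100 genes. The 4802 CpG-rich starts in windows with under 14 peaks had 0.437 upstream and 0.562 downstream per 100 genes within 1 kb, and 6.23 from 1 to 2 kb downstream. The plot of midpoints by distance from the start shows that both window classes meet near 0 at the start and part again beyond 1 kb. At the 287 other starts in dense windows the dip was shallower, with 8.01 midpoints per 100 genes in the 1 kb upstream and 14.6 in the 1 kb downstream.

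Peak counts per window fell off smoothly, so dense windows are the upper end of a range and not a separate class. The median autosomal window held 3 peaks, 3557 windows held none, and the highest count was 25. At the limit, 224 windows had 15 peaks and 313 had 14. The 15-peak windows had a median of 14.4 kb covered by peaks and the 14-peak windows 12.8 kb. The median share inside protein-coding genes was 69.5% in 15-peak windows and 69.8% in 14-peak windows. Only 100 windows had 20 or more peaks.

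**Figure D2:**
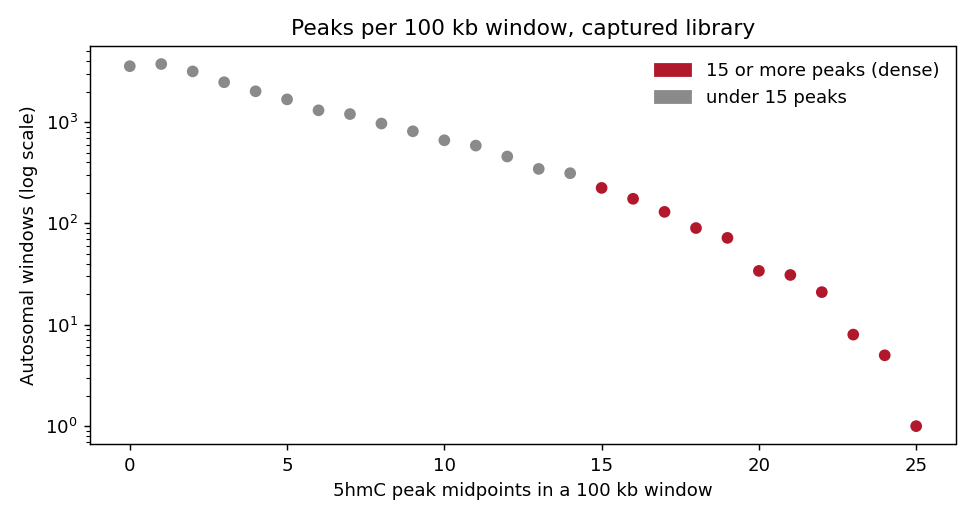
Number of autosomal windows (vertical axis, log scale) by the number of peak midpoints they hold (horizontal axis), as 1 point per count with dense windows in red. Counts fall without a break from windows of 14 peaks (313) to windows of 15 (224) and end at 25.

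The dense windows span 79.1 Mb and held 13480 of the 106034 autosomal peaks (12.7%). Peaks covered 13.8 Mb of these 79.1 Mb, against 3.49% of the sequence of all other windows. The median dense window had 16.6 kb under peaks, with a range from 7.31 to 39.5 kb. Within a dense window the peaks were spread out. In the median window 9 of 10 steps of 10 kb held a midpoint, and in 228 windows all 10 did. The longest stretch between neighbouring midpoints had a median of 15.3 kb.

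Peaks of dense windows were many and weak rather than strong. Their median fold was 3.24, against 3.37 in windows with under 14 peaks, and 90% of them were at or under 4.15, against 5.65. A −log10 q of 5 or more, a strict level for the caller's adjusted p, was reached by 403 of 13480 peaks in dense windows (2.99%), against 12088 of 88172 (13.7%) in windows with under 14 peaks. The share of such strong peaks was 26.0% in windows of 1 or 2 peaks, 10.7% in windows of 6 to 9, 3.52% in windows of 15 or 16 and 2.21% in windows of 20 to 25. Width ran the other way, with a median of 540 bp in windows of 1 or 2 peaks and 830 bp in windows of 20 to 25. In 541 of the 791 dense windows no peak was strong.

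The weak calls decide which windows are dense. With peaks of −log10 q of at least 2, only 3 windows reached 15 peaks. When the limit was then lowered to 7 peaks, 674 windows passed, and 285 of them were dense windows in the full list (42.3% of the 674 and 36.0% of the 791). With −log10 q of at least 3 and a limit of 5 peaks, 569 windows passed, and 57 were shared (10.02% of the 569 and 7.21% of the 791). In that set 28.2% of peaks lay inside genes, against 79.9% in the dense windows of the full list and 58.5% in the set of 674. The descriptions of genes that follow therefore hold for the full list only, and the cause of the difference was not tested.

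Most peaks of dense windows lay in genes. A gene of any type held 79.9% of their midpoints (10770 of 13480, interval 79.2 to 80.6), against 58.1% (57.8 to 58.4) in windows with under 14 peaks and 75.8% in 14-peak windows. Protein-coding genes held 74.8% in dense windows, against 49.5% in windows with under 14 peaks. Protein-coding spans filled a median of 74.3% of a dense window, against 28.2% of a window with under 14 peaks. The mean number of protein-coding gene midpoints was 2.04 per dense window, against 0.799.

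The share of windows that were dense was higher in gene-containing windows than in windows without a protein-coding gene, but did not increase at every step. It was 0.321% of the 8424 windows outside protein-coding genes and 8.89% of the 3230 windows with 75 to under 100% inside such genes. In the 3676 windows wholly inside protein-coding genes it was 2.67%, and the median count there was 2 peaks, as outside genes. Counted by gene midpoints, 0.965% of windows with none and 12.4% of the 631 windows with 5 to 9 were dense, and 4 of the 35 windows with 10 or more (11.4%, interval 3.20 to 26.7). Peak counts and gene content are both measured along the same chromosomes, and no test of their relation was made.

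**Figure D3:**
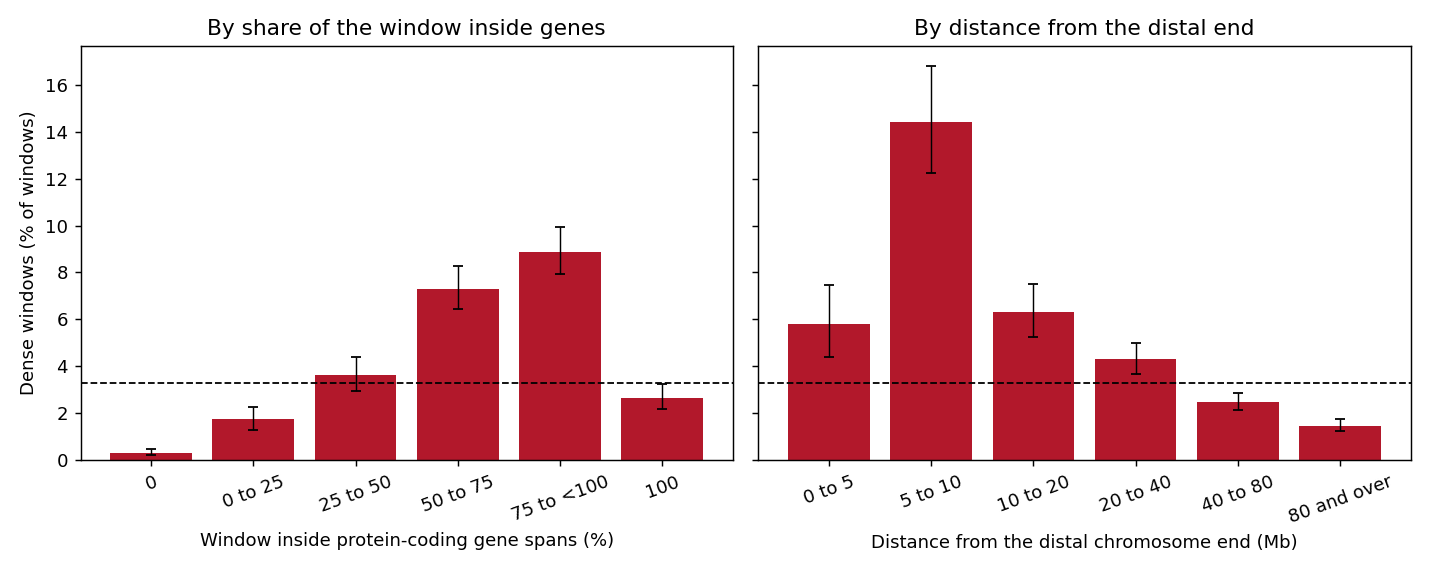
Dense windows as a percentage of all autosomal windows (vertical axis), by the share of the window inside protein-coding gene spans (left) and by distance from the distal chromosome end (right). Bars are shares, error bars exact 95% intervals and the dashed line is 3.29%; the highest bars are 8.89% at 75 to under 100% and 14.4% at 5 to 10 Mb.

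Dense windows came in different settings. In 93 windows (11.8%) 1 protein-coding gene spanned the whole window, against 14.99% of windows with under 14 peaks, so spanning was not more common in dense windows. Another 82 (10.4%) held 5 or more gene midpoints, against 2.39%. A further 27 (3.41%) held no protein-coding gene, against 36.5%. Most dense windows, 589, were in none of these 3 settings, and their median count was 16 peaks. The median peak count was 16 in spanned windows, 17 in gene-rich windows and 16 in windows without such a gene. The median fold was 3.19 in spanned windows, 3.30 in gene-rich windows and 3.26 in windows without a protein-coding gene. Strong peaks made up 1.43% in spanned windows, 1.91% in gene-rich windows and 8.31% (37 of 445) in windows without a protein-coding gene.

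The 10 windows with most peaks ranged from windows inside 1 gene to windows over 8 genes. The window with most peaks, chr5:115900001-116000000, had 25 peaks with folds from 2.76 to 4.39, all inside Cit, the gene of citron kinase, which acts in cytokinesis. The next, chr16:89900001-90000000, had 24 peaks, all in Tiam1, which encodes an activator of the GTPase Rac. A further window of Tiam1, chr16:90100001-90200000, had 23 peaks, 10 of them in the gene. A window of 24 peaks at chr17:46600001-46700000 overlapped 8 genes: Ptk7, a receptor of planar cell polarity with 7 of the peaks, Cul7, Klc4, Klhdc3, Mea1, Mrpl2, Ppp2r5d and Rrp36. In a window of 24 peaks at chr11:69400001-69500000, 22 lay in Dnah2, and its neighbour Kdm6b, which encodes a demethylase of histone H3, had 2.

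Adjacent windows chr17:28000001-28100000 and chr17:28100001-28200000 had 24 peaks each. The proximal one overlapped Anks1, which had 16 of its peaks, and Tcp11, and the distal one overlapped Scube3, which had 10, and Zfp523. The window chr8:122400001-122500000 had 23 peaks over 8 genes, among them Piezo1, a mechanically gated channel gene, Cyba, Ctu2, Il17c, Mvd, Rnf166, Snai3 and Zc3h18. Windows of 23 peaks each lay wholly inside the homeobox gene Cux2 (chr5:121900001-122000000) and inside Cmip (chr8:117300001-117400000). Across these 10 windows the highest −log10 q of any peak was 8.31 and the widest peak was 6673 bp.

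Each autosome had a window of 19 peaks or more. Chromosome 12 had 23 peaks in Sptb, a spectrin gene of the membrane skeleton, and chromosome 1 had 23 in Dst, a cytoskeletal linker gene. On chromosomes 6, 4 and 14 all peaks of the densest window lay in 1 gene: 22 in Mical3, 22 in Pex14, needed for import into peroxisomes, and 21 in Peli2. In the densest windows of chromosomes 2, 15, 10 and 18 the leading genes were Atp9a (16 of 22), Pced1b (19 of 22), Pald1 (16 of 22) and Zfp532 (18 of 21). The leading genes were Add3 with 11 of 22 peaks on chromosome 19, Unc45a with 7 of 22 on chromosome 7 and Kank2 with 8 of 21 on chromosome 9. They were Map3k1 with 14 of 20 peaks on chromosome 13 and Wdr63 with 9 of 19 on chromosome 3. Piezo1 led on chromosome 8 with 6 of 23 peaks. Single genes thus dominated most but not all of these windows.

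Among genes with their midpoint in a dense window, the most peaks lay in long ones. Agap1 had 79 peak midpoints over 440472 bp, Tiam1 77, the zinc transporter gene Slc39a11 76, the forkhead gene Foxn3 65 and Dst 65. Gse1 had 59, Trio 49, Mical3 46, Ppm1h 46 and Cit 44. Peaks covered between 15.8% of Agap1 and 37.2% of Cit among these 10 genes. Tiam1, Slc39a11, Foxn3 and Agap1 each spanned 3 dense windows, and in all 80 genes spanned at least 1. Among these 80, Wwox, a gene of 913078 bp whose midpoint lies outside dense windows, had 107 peaks, more than Agap1, and 9.63% of it was covered.

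Short genes were covered most completely. Among genes of 5 kb or more in dense windows, peaks covered 73.7% of Pheta1, 71.97% of Cdk5rap3, 68.5% of Ren1, the renin gene, and 66.9% of the water channel gene Aqp3. They covered 65.8% of Caskin2, 65.6% of Ptbp1, a splicing regulator gene, 64.3% of Pxt1, 63.8% of Shmt2, a gene of serine metabolism, and 62.5% of Glrx5. Coverage varied widely among the 1613 protein-coding genes with their midpoint in a dense window (7.85% of 20560). The median was 17.8%, against 1.96% in windows with under 14 peaks, and 173 genes (10.7%) had no peak midpoint, against 39.7%. Gene length did not separate the classes, with a median of 16.2 kb in dense windows, against 17.9 kb.

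Dense windows often adjoined each other. The 791 windows formed 573 runs, of which 430 were single windows, 143 joined 2 or more and 18 joined 4 or more. Runs of 2 or more held 361 windows (45.6%). The windows beside a run had a median of 10 peaks, against 3 in all autosomal windows, so density declined over more than 1 window at the edges.

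The longest run, chr17:27000001-27700000, joined 7 windows with 18, 18, 15, 16, 21, 19 and 15 peaks. It overlapped 12 protein-coding genes, and most peaks lay in Grm4, a metabotropic glutamate receptor gene (20), Itpr3, a calcium release channel gene (14), and Nudt3 (9). Only 56.6% of its 122 peaks lay inside genes of any type. Another 3 runs joined 6 windows. The run chr4:151900001-152500000 had 106 peaks, with 16 in Acot7, 16 in the potassium channel subunit gene Kcnab2 and 12 in the chromatin remodeller gene Chd5. The run chr11:113300001-113900000 had 105 peaks, 67 of them in Slc39a11, 18 in Sdk2 and 6 in Cdc42ep4. The run chr19:5300001-5900000 had 100 peaks over 36 genes, and its leading genes Pcnx3, Frmd8 and Ehbp1l1 had only 6, 5 and 4. Of the runs with 5 windows, the one with most peaks, chr4:117900001-118400000, had 88 peaks, with 35 in the sialyltransferase gene St3gal3, 19 in the phosphatase gene Ptprf and 10 in the histone demethylase gene Kdm4a. Runs of like length were thus built from 1 long gene or from many short ones.

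Chromosomes differed in their share of dense windows. Chromosome 17 had 58 of 919 windows (6.31%, interval 4.83 to 8.08) and chromosome 11 had 75 of 1189 (6.31%, 4.99 to 7.84). Chromosome 19 had 5.65%, chromosome 4 had 5.48% with the highest number, 84, and chromosome 15 had 5.25%. At the low end, chromosome 6 had 22 of 1466 (1.501%, 0.943 to 2.26), chromosome 14 had 1.64%, chromosome 13 had 1.70%, chromosome 3 had 1.72% and chromosome 1 had 1.77%. Intervals of neighbours in this order overlap. Chromosomes with more protein-coding genes per Mb tended to have more dense windows, with a Spearman rank correlation of 0.61 over the 19 autosomes, which share the library. Chromosome 7 had the highest gene density, 14.2 per Mb, with 2.60% of windows dense, and chromosome 12 the lowest, 5.79 per Mb, with 3.501%.

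**Figure D4:**
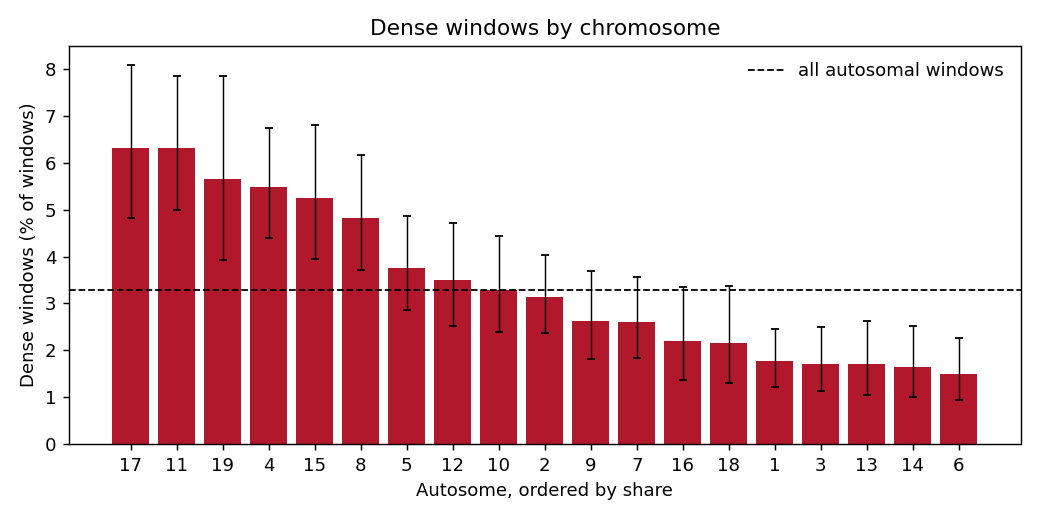
Share of windows that were dense (vertical axis, percent) on each autosome, ordered from high to low; error bars are exact 95% intervals and the dashed line is 3.29% over all autosomal windows. Chromosomes 17 and 11 stand at 6.31% and chromosome 6 at 1.501%.

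Dense windows lay towards the distal ends, the ends away from the centromere in mouse chromosomes. Beyond the middle of their chromosome lay 549 of the 791 (69.4%), and they were the larger number on 16 of 19 autosomes. Between 5 and 10 Mb from the distal end 137 of 950 windows were dense (14.4%, interval 12.2 to 16.8), against 5.79% in the last 5 Mb and 1.47% at 80 Mb and more. Chromosomes 8 and 11 gave 23 and 20 of these 137 windows and chromosome 6 gave none. Without chromosomes 8 and 11 the share was 11.1%, against 3.03% over all windows of the other chromosomes. At the proximal side, 13 of 950 windows between 5 and 10 Mb were dense (1.37%). Chromosomes 17, 13 and 7 went the other way, with 32.8%, 35% and 40.5% of their dense windows beyond the middle.

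Of the gene lists, TGF-beta family signalling had the highest share in dense windows. By their midpoints 8 of 26 members lay there (30.8%, exact interval 14.3 to 51.8), against 7.85% of all autosomal protein-coding genes. The median member lay in a window of 10.5 peaks. These ligands, receptors and SMAD proteins carry BMP, activin and TGF-beta signals. The ligand gene Bmp7 had 19 peaks and 33.5% of its span covered. The receptor genes Acvr1b and Acvr2b had 10 and 8 peaks. Of the transducers, Smad3 had 18 and Smad1 had 14 peaks, and of the inhibitory SMADs Smad6 had 16 and Smad7 had 7. Ltbp3, which binds latent TGF-beta, had 2. The count was 8 also with windows shifted by 50 kb and with genes assigned by any overlap. Both settings use the full peak list with its weak calls, and the lists were not counted with peaks of higher −log10 q.

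Genes of the cytoskeleton list were next, with 5 of 19 (26.3%, 9.15 to 51.2). The non-muscle myosin gene Myh9 had 17 peaks, Myh14 had 13, Plec, which encodes plectin, had 10 with 57.1% covered, and Tln1, the talin gene, had 8. Actg1, the gene of gamma actin, had 1. The polycomb and trithorax list, which also holds the deacetylase gene Hdac7, had 5 of 28 (17.9%, 6.06 to 36.9). Among the 5, the histone methyltransferase genes Kmt2a and Setd1b had 15 and 5 peaks, Hdac7 had 13, and the polycomb gene Cbx7 had 8. Kdm6b had 2. The intervals of these lists are wide because they have few members.

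Of the germ cell identity list 4 of 20 lay in dense windows (20%, 5.73 to 43.7), all of them transcription factor genes. The germ cell markers Ddx4, Dazl, Dppa3, Dnmt3l and Kit lay outside dense windows. Prdm1, which specifies primordial germ cells, had 11 peaks, Sall4 had 4 with 58.8% covered, Prdm14 had 3 and Tfap2c had 2. Of the pluripotency list 4 of 22 lay in dense windows (18.2%, 5.19 to 40.3). There were 3 peaks in Prdm14 and 1 each in Utf1, in Lefty1 and in Nodal, a ligand of the activin branch. Of the DNA methylation and demethylation list 3 of 22 did (13.6%, 2.91 to 34.9). They were Kdm2b with 22 peaks, the de novo methyltransferase gene Dnmt3a with 21 and Cxxc5 with 7. The piRNA pathway had 2 of 20, with 6 peaks in Spocd1 and 4 in Piwil1. The meiosis list had 2 of 29, Spo11 with 2 peaks and Rec8 with 1. Spermiogenesis had 3 of 25, with 1 peak each in Spem1, Catsper1 and Catsper4. Each of these intervals includes the 7.85% of all genes. With windows shifted by 50 kb the count was 1 for each of the piRNA, meiosis and spermiogenesis lists, and with genes placed by any overlap it was 4 for meiosis.

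Hox genes, other developmental transcription factors and chemosensory receptor genes were rare or absent. No Hox gene lay in a dense window (0 of 39, exact interval 0 to 9.03%). Hox genes lie in clusters, so the 39 genes are not independent and the interval is too narrow. The median Hox gene lay in a window of 4 peaks, the lowest median of the gene lists. The median autosomal window held 3 peaks, but 13371 of the 24045 windows hold no protein-coding gene midpoint. Windows with 1 such midpoint had a median of 4 peaks, and those with 5 to 9 had a median of 9. Of other developmental transcription factors, only Sox10 of 48 lay in a dense window (2.08%, 0.0527 to 11.1), with 2 peaks. Of 33 imprinted genes only Rtl1 did, with 4 peaks. The intervals of these 3 lists also include 7.85%. No olfactory receptor gene (0 of 1103) and 1 of 351 vomeronasal receptor genes did. Genes with a Zfp symbol stood at 15 of 388 (3.87%), solute carrier genes at 39 of 362 (10.8%) and ribosomal protein genes at 11 of 73 (15.1%). These families were picked by symbol after earlier results were known.

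Signalling genes of the Wnt, Notch and Hedgehog pathways had 5 of 42 (11.9%, 3.98 to 25.6). The transcription factor gene Lef1 had 19 peaks, the Notch ligand gene Jag2 had 6, Wnt11 had 2 and the receptor gene Fzd7 had 1, and Hes1 had none. Ribosomal and housekeeping genes had 5 of 29 (17.2%, 5.85 to 35.8), with 1 peak each in Tubb5, Rpl13a, Rplp0 and Gapdh. With windows shifted by 50 kb the count was 8. Markers of other testis cells lay in dense windows at about the share of all genes, with wide intervals. Of gonadal soma genes 1 of 13 did, Cyp17a1 (7.69%, 0.195 to 36.0), and of blood and endothelial genes 1 of 10 did, Pecam1 (10%, 0.253 to 44.5). With windows shifted by 50 kb the gonadal soma count was 0.

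**Figure D5:**
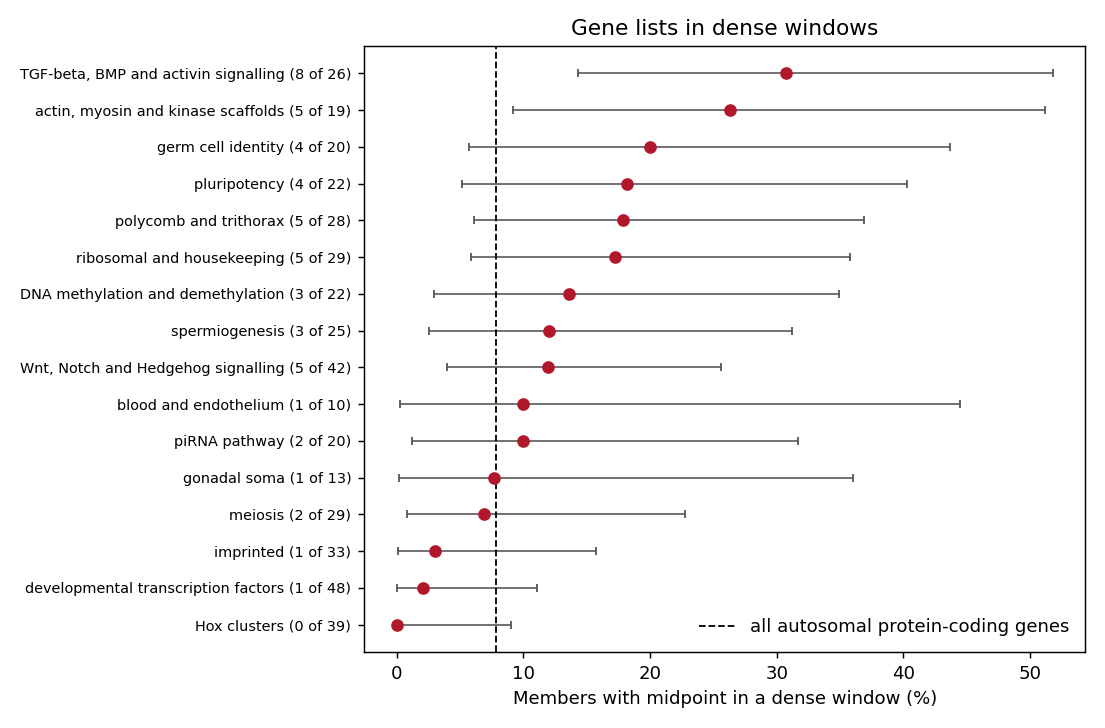
Percentage of each list's autosomal protein-coding members with their midpoint in a dense window (horizontal axis; points, with exact 95% intervals as bars), with counts beside the names and the dashed line at 7.85% for all such genes. TGF-beta, BMP and activin signalling stands at 30.8% and Hox clusters at 0%.

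Of 1136 autosomal microRNA genes 139 lay in dense windows (12.2%, interval 10.4 to 14.3), spread over 101 windows. The share was 7.85% for autosomal protein-coding genes. Of the 139, 17 lay in the same window, so these genes are not independent and the interval is too narrow. A peak overlapped 59 of the 139 (42.4%), against 119 of 951 (12.5%) in windows with under 14 peaks. More overlap is likely for any feature of dense windows, since they were chosen for many peaks. Peaks covered 13.8 Mb of their 79.1 Mb, against 3.49% of the sequence of all other windows. Of the 59 genes, 6 were overlapped by the same peak. The gap is therefore not read as a trait of microRNA genes. Long non-coding RNA genes had 6.51% in dense windows and pseudogenes 2.43%.

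The window with most microRNA genes was chr12:109500001-109600000, with 17 of them and 17 peaks. It lies in the imprinted domain between Dlk1 and Dio3, where several microRNAs are made antisense to Rtl1. Folds of its peaks ran from 2.75 to 4.74. Its highest and widest peak, 5003 bp from chr12:109590977-109595979, had a −log10 q of 4.31 and overlapped 6 microRNA genes. Their mature sequences are shown because 1 peak spans the whole group. They are RefSeq sequences of build GRCm38.p6, with the seed, bases 2 to 8, in capitals.
mmu-miR-433-5p: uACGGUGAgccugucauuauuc
mmu-miR-433-3p: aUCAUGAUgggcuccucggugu
mmu-miR-127-5p: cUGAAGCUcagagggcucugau
mmu-miR-127-3p: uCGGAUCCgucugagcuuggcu
mmu-miR-434-5p: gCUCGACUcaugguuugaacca
mmu-miR-434-3p: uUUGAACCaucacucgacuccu
mmu-miR-432: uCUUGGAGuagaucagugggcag
mmu-miR-3071-3p: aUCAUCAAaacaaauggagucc
mmu-miR-136-5p: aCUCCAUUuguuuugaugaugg
mmu-miR-3071-5p: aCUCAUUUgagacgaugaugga
mmu-miR-136-3p: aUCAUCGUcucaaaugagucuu

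The 11 mature sequences have 11 different seeds. Mir136 and Mir3071 lie on opposite strands of the same place, so the 1 peak cannot be assigned to either of them. Of the 17 microRNA genes 9 were overlapped by a peak, and the other 3 of these, Mir770, Mir337 and Mir3544, had folds of 3.41, 2.89 and 2.89.

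The 27 windows without a protein-coding gene included long non-coding genes. At chr6:31100001-31200000 all 21 peaks lay in non-coding genes, among them Lncpint, and the nearest protein-coding gene, Klf14, was 141 kb away. At chr8:121300001-121400000 the window held 20 peaks, and 0 of them lay in a gene. At chr17:84000001-84100000, 16 of 19 peaks lay in long non-coding genes, 83.9 kb from Zfp36l2. These windows were singled out after their values were seen.

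A few dense windows were made of stronger peaks. At chr11:3100001-3200000, which overlaps Sfi1 near the start of the assembled chromosome, 12 of 18 peaks had a −log10 q of 5 or more and the highest fold was 14.7. Near Aurkc, a kinase gene of meiosis, the window chr7:7000001-7100000 had 15 peaks with a median fold of 5.87, the highest of any dense window, and 36.9 kb under peaks. The window chr17:13300001-13400000 at Tcp10c had 8 such peaks among 22. Reads that map to several places could not be checked in these windows, and their part in these values was not tested. They too were chosen for their values.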

How the data were processed

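Per the labels, 5hmC was profiled by 5hmC-Seal in wild-type prospermatogonia, with 1 captured library and 1 library before capture. Build mm10 and the tools MACS2 2.1.0, Bowtie2 2.5.0, Trim Galore, deepTools 3.5.1, bedtools 2.27.1 and SAMtools 1.16.1 are named, per the submitters' processing notes. The sources used here do not state the role of each tool, the peak settings, whether the library before capture served as control, or how reads with several map places were handled. In the peak table that the authors deposited, each of 108395 broad peaks has a position, a fold enrichment (a ratio), a −log10 p, a −log10 q and a score. The lowest deposited −log10 q was 1.01, so the list holds weak calls. Depth and the error of a fold are unknown, since reads are not counted in it.

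Windows were counted from the first to the last window with a peak or gene on each of 19 autosomes. RefSeq genes of GRCm38.p6, which mm10 corresponds to, were used. Of its autosomal genes, 328 that start in the opening 3 Mb were left out as scaffold positions, and 46714 were used. A gene was placed by the midpoint of its span, and a promoter by its gene's start farthest upstream; no promoter of chromosome 18 was used. Counting was tested on simulated data, where 247 of 247 planted windows were recovered. The members and lists were chosen with earlier results of these data known. The text names the protein-coding genes of the 10 densest windows, 3 genes of each of the 5 longest runs, the 10 genes with most peaks and the 10 most covered ones, up to 4 members of each list in dense windows, and the leading gene of each autosome's densest window; others were picked after their values were seen. Some genes that this rule names are not reported here. Python 3.11.15, numpy 2.4.6, pandas 2.3.3, scipy 1.17.1 and matplotlib 3.10.9 were used.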

Additional observations from a re-analysis of the deposited data

How the results depend on the processing

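The number of dense windows rests on weak calls. With a −log10 q of at least 3 there was 1 window in 1 run, on chromosome 11 (100% of dense windows), with 0.0631% of autosomal peaks, 0.00486% of protein-coding genes and 87.5% of its peaks inside genes. With a −log10 q of at least 2 there were 3 windows in 3 runs, 33.3% of them on chromosome 11, with 0.109% of peaks, 0.0340% of genes and 76% of their peaks inside genes. Lowering the limit along with these, which was added after seeing the data, placed 6.08% of genes in windows with 7 or more peaks of −log10 q at least 2, and 58.5% of those peaks lay inside genes. It placed 2.74% of genes in windows with 5 or more peaks of −log10 q at least 3, and 28.2% of those peaks lay inside genes. The last share is below the 58.1% of windows with under 14 peaks in the full list, but that 58.1% counts peaks of every q. The share inside genes was not computed for peaks of −log10 q at least 3 in the remaining windows. Whether the higher share inside genes in dense windows holds for such peaks therefore cannot be stated. The cause of the low share was not tested.

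A limit of 12 peaks gave 1906 windows in 1098 runs, with 26.2% of peaks, 18.4% of genes and 77.0% inside genes. A limit of 20 gave 100 windows in 89 runs, with 2.001% of peaks, 0.929% of genes and 85.4% inside genes. Windows shifted by 50 kb held 12.4% of peaks, with 80.7% inside genes. Merging peaks within 1 kb gave 11.1% of peaks and 6.79% of genes. Counting any overlap of peak and window gave 13.2% of peaks, and placing genes by any overlap gave 9.35% of genes. Counting protein-coding genes only, 74.8% of peaks lay inside genes. With looser limits for CpG-rich promoters, 0.617% of them in dense windows were overlapped by a peak.

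No paired analysis was possible because there is 1 captured library and no replicate. Depth is unknown, so how many weak peaks a deeper or shallower library would give cannot be stated.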
